A study of Mus musculus with 12 samples.

Results

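The comparison described here sets NIH3T3 cells carrying Yap at high density against NIH3T3 cells carrying a control vector at complete confluency. It was chosen by sample title and rests on 4 of the 12 arrays of the series, 2 in each group. NIH3T3 is an established mouse fibroblast line, and all cells had been infected with virus. The Yap cells were described as proliferating and were taken slightly above the confluency that normal cells reach, which is called high density here. The control virus cells were taken at complete confluency, and density was therefore not matched: an effect of Yap and an effect of the difference in density or proliferation cannot be told apart. As further points of reference, Tead2-VP16 cells at high density (2 arrays) share the labelled density of the Yap cells, and control cells at low density (2 arrays) were taken at 30% confluency. Total RNA was hybridized to Affymetrix arrays. Whether the pair of arrays in each group stands for separate cultures is not stated in the labels, and p-values therefore cover only the spread from array to array. They also do not say whether the cells were a pool or 1 clone, or which promoter drove the introduced genes.

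Yap is the coactivator at the end of the Hippo pathway. The kinases Stk4 and Stk3, with the scaffold Sav1, activate Lats1 and Lats2, which phosphorylate Yap and keep it out of the nucleus, and in fibroblasts that touch on all sides this arm is active and growth stops. Unphosphorylated Yap enters the nucleus and binds DNA through the Tead factors, and Ccn2, Ccn1 and Ankrd1 are its most used target genes. Tead2-VP16 joins the DNA-binding part of a Tead factor to a viral activation domain and acts on the same sites without Yap.

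The introduced gene could not be read from the arrays. The brighter of the 2 Yap1 probe sets was at 9.62 and 9.69 in the Yap arrays and at 9.95 and 9.98 in the confluent control arrays (log2 intensity, the scale of every level below). It was lower in the Yap cells by -0.31 ± 0.05 (log2 fold change and standard error of the fit, adjusted p = 0.0019). The other was at 8.76 and 8.75 against 8.94 and 8.81. The labels do not give the species of the introduced Yap or the stretch of the transcript that the probes read, so these levels do not check the label. The Tead2 probe set was at 9.41 and 9.23 in the Tead2-VP16 arrays, below confluent control at 9.87 and 9.90 and low-density control at 9.63 and 9.62, and did not show that construct either.

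Of 18193 genes, 2123 (11.7%) were higher and 2633 (14.5%) were lower in the Yap cells than in confluent control, by limma's moderated test with Benjamini-Hochberg adjustment at an adjusted p below 0.05. A gene that passed this test is said to have risen or fallen, and fold changes are log2 of Yap minus control unless another scale is named. Without replicate 2 of Yap, 1395 genes were higher. Most changes were small, with a median fold of 1.28 among the genes that rose and 1.30 among those that fell, and 93 rose and 107 fell by at least 2-fold. Across genes, the arrays within a group correlated at r = 0.9986 for Yap and 0.9985 for confluent control. The median over all genes was -0.00. It is the reference for the medians of gene lists below, and the shares of 11.7% and 14.5% are the reference for their counts. The lists held 1337 measured entries, 1286 distinct genes, in 43 lists.

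Ccn2, a secreted matricellular protein, showed the largest rise among the genes named here. It was at 9.73 and 9.76 in the Yap arrays and at 6.31 and 6.71 in confluent control, a 9.40-fold difference (3.23 ± 0.11, adjusted p = 1.4e-07). Both control arrays of Ccn2 lay below the median gene of 6.87 over the 12 arrays, so the size of this difference is uncertain. Ccn1, its relative, was at 10.21 and 10.23 against 9.23 and 9.21 (adjusted p = 1.9e-06). Ankrd1, a nuclear ankyrin repeat protein, was at 7.89 and 7.91 against 6.91 and 7.14, which is 1.84-fold (adjusted p = 0.0001). All 4 probe sets of Ccn1 and both of Ankrd1 rose. Nuak2, a kinase of the AMPK family, rose 2.29-fold, from 7.64 and 7.59 to 8.78 and 8.83. The control cells at low density had more of the first 3 than the Yap cells, at 11.60 for Ccn2, 10.69 for Ccn1 and 8.93 for Ankrd1 (means of 2 arrays).

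The promoter windows of Ankrd1 and Ccn1 are shown because both genes rose and both windows hold the core of the Tead element, GGAATG, searched on both strands. Each window runs from 250 bases before to 50 bases after the annotated start (RefSeq, GRCm38.p6), and is written 5′ to 3′ on the strand of the gene, which is the minus strand for both, with capitals on the match (CATTCC is the same element on the other strand).
Ankrd1, chr19:36119795-36120094: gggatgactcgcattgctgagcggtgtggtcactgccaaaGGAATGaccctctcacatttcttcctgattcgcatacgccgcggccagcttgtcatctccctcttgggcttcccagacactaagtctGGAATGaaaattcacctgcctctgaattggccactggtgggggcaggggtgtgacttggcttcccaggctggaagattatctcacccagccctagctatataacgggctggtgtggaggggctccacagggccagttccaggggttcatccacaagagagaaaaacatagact
Ccn1, chr3:145649936-145650235: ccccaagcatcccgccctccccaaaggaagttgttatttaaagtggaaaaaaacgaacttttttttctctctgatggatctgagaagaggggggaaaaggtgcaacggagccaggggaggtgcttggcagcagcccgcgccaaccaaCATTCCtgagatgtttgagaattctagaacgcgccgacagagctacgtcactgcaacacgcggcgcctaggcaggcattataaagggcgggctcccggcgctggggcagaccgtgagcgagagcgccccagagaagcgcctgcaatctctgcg
The matches begin 210 and 123 bases before the start of Ankrd1 and 103 bases before that of Ccn1. GGAATG was present in 7 of the 17 windows of the Yap/Tead signature genes, in 4 of the 6 windows of the members that rose, and in 14.7% of all 32851 windows. A match describes letters and is not a binding site.

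The Yap/Tead signature, a published set of direct targets from human tumours, did not move together. Of 22 measured genes, 7 rose, 8 fell and the median was 0.05. Beside Ccn2, Ccn1, Ankrd1 and Nuak2, the rises were those of Foxf2, a forkhead factor (0.55), Lats2, the Yap kinase (0.33), and Amotl2, which holds Yap at junctions (0.20). The falls were led by F3, tissue factor, which starts blood clotting. F3 was at 9.98 and 9.94 with Yap and at 10.73 and 10.76 in confluent control (-0.79 ± 0.06, adjusted p = 1.1e-05). Rbms3, an RNA-binding protein, fell by 0.75 and on all 4 of its probe sets. Asap1, an Arf GTPase-activating protein, fell by 0.66 and on all 3 of its probe sets. Arhgef17 (-0.49, probe sets -0.49 to 0.11), Gadd45a (-0.40), Ptpn14 (-0.35, probe sets -0.35 to 0.08), Myof (-0.27, probe sets -0.27 to 0.06) and Fjx1 (-0.25) fell by less, and each of Arhgef17, Ptpn14, Myof and Fjx1 fell on 1 probe set only. Axl, a receptor kinase often used as a Yap target, was at 12.14 and 12.15 against 12.08 and 12.09 (0.06, adjusted p = 0.48). Crim1 (-0.23), Tgfb2 (-0.24), Dock5 (0.18), Ccdc80 (0.13), Nt5e (0.09) and Igfbp3 (0.04) were not called either, and Igfbp3 was among the dimmest genes of the array, between 3.12 and 3.32. With the mean of each gene's probe sets in place of the brightest, 5 members were lower.

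**Figure D1:**
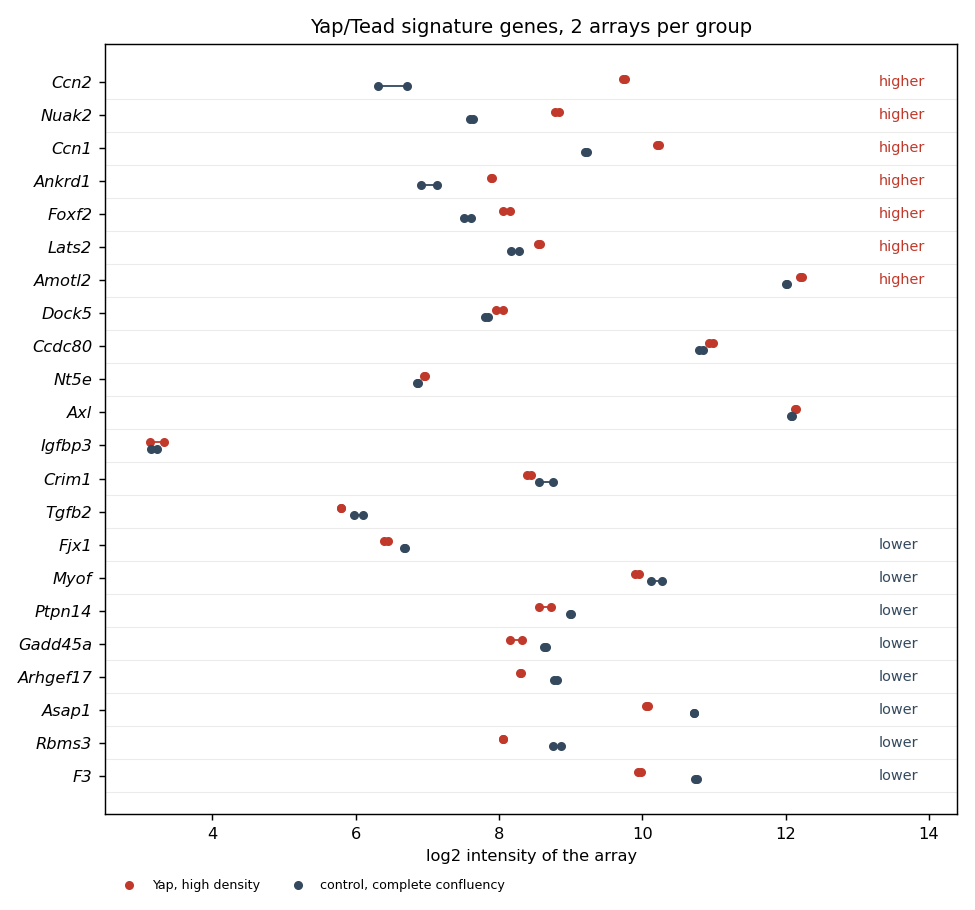
Levels of the 22 Yap/Tead signature genes, as log2 intensity on the horizontal axis, in the 2 Yap arrays at high density and the 2 control arrays at complete confluency, 1 point per array, ordered by fold change. The 7 genes marked higher include Ccn2 (9.73 and 9.76 against 6.31 and 6.71), and the 8 marked lower end with F3 (9.98 and 9.94 against 10.73 and 10.76).

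Within the Hippo pathway itself, 6 of 40 measured genes rose (15%) and 11 fell (27.5%), with a median of -0.09. Over all genes the shares were 11.7% and 14.5%. The DNA-binding partners of Yap moved apart. Tead4 was at 7.74 and 7.72 with Yap and at 6.69 and 6.50 in confluent control, a rise of 1.14 ± 0.08 (adjusted p = 8.6e-06) that both its probe sets showed. Tead2 went the other way, from 9.87 and 9.90 to 9.003 and 9.10 (-0.83 ± 0.07, adjusted p = 2.2e-05). Tead1 (0.15) and Tead3 (-0.08) were not called. Vgll3, which competes with Yap for Tead factors, rose by 0.46 on its brightest and on each other probe set. Among the kinases and their partners, Lats2 rose (0.33) and Lats1 fell (-0.27), whereas Stk4 (-0.05), Sav1 (0.14), Mob1a (0.11) and Mob1b (-0.09) were not called. The upstream regulators that fell were Nf2, the product of which is merlin (-0.38), Frmd6 (-0.52), Wwc2 (-0.25), Amot (-0.30), Ptpn14 (-0.35) and Dlg5 (-0.51), and Map4k4 (-0.23) and Strn3 (-0.29) fell too. Map4k4 and Strn3 had other probe sets at 0.33 and 0.19. Ajuba, which inhibits Lats kinases, rose by 0.48 and Rassf5 by 0.50. Wwtr1, the Yap paralogue Taz, was at 9.89 and 9.83 against 9.93 and 9.96 and was not called. The count of lower members was 7 without replicate 2 of the confluent control or without replicate 1 of Yap, and the count of higher members was 10 with the mean of each gene's probe sets.

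Most of the 12 largest rises were in genes of the contractile cytoskeleton, of signalling by cyclic nucleotides and of the Id family, and 2 chemokines were among them. Fhl1, a LIM protein of muscle, was at 8.94 and 8.93 with Yap and 6.27 and 6.25 in confluent control on its brighter probe set (2.68), and at 0.13 on the other. Tagln, the actin-bundling protein transgelin, was at 11.10 and 11.08 against 8.55 and 8.65, which is 5.62-fold. Prkg2, a kinase that responds to cyclic GMP, was at 9.50 and 9.59 against 7.24 and 7.04, and its 3 probe sets lay between 0.96 and 2.40. These 3 genes were high in both Yap arrays, and absence of overlap between the groups was a condition for naming the largest rises. Pde4b, a phosphodiesterase that degrades cyclic AMP, rose by 2.37, with its 6 probe sets between -0.04 and 2.37. Id1 (2.34), Id2 (2.05) and Sertad4 (2.13), a SERTA domain protein, rose as well. As for Ccn2, both confluent control arrays of Fhl1, Ccl2, Pde4b, Sertad4, Actg2, Ccl7 and Acta1 lay below the median gene of 6.87. The size of these rises is therefore uncertain.

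**Figure D2:**
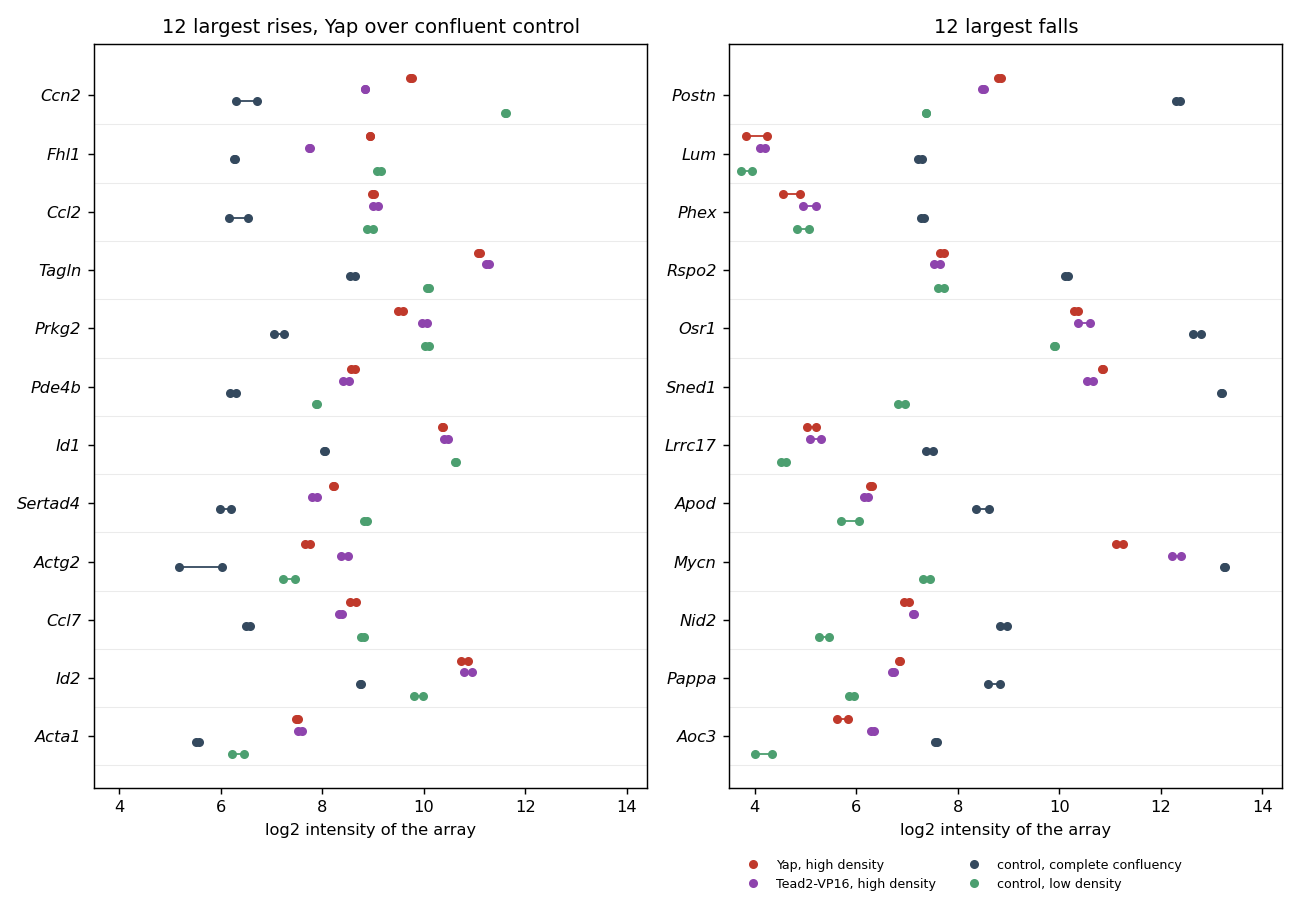
The 12 genes with the largest rise (left) and the 12 with the largest fall (right) between Yap at high density and control at complete confluency, by log2 intensity of each array, with Tead2-VP16 at high density and control at low density beside them, 2 arrays per group. The genes were chosen so that both Yap arrays lie on one side of both confluent control arrays. Examples are Ccn2 (9.73 and 9.76 against 6.31 and 6.71) and Postn (8.80 and 8.85 against 12.37 and 12.30).

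Smooth muscle and other SRF target genes rose widely. SRF is the factor that binds the CArG box and, with the actin-sensing coactivator Mrtf, drives genes of actin fibres. Of 48 measured genes 31 rose (64.6%) and 5 fell (10.4%, against 14.5% over all genes), with a median of 0.33. Acta2, smooth muscle actin, was at 13.74 and 13.76 against 11.996 and 12.13 (1.68 ± 0.06, adjusted p = 2e-07), with its other probe sets lower, down to 0.33. Vcl, vinculin, was at 12.52 and 12.56 against 11.27 and 11.27 and rose on both its probe sets. Acta1, skeletal actin, was at 7.51 and 7.48 against 5.57 and 5.51 (1.96). Actg2, enteric smooth muscle actin, was at 7.75 and 7.66 against 6.02 and 5.17 (2.11 ± 0.21), the widest spread among the large rises. The tropomyosins Tpm1 (1.06) and Tpm4 (0.97), the actin crosslinker Actn1 (0.97) and Csrp2 (1.02) also rose. The falls included Smtn, smoothelin, from 9.65 and 9.66 to 8.75 and 8.78 (-0.89), Myh10, a nonmuscle myosin (-0.71, probe sets -0.71 to 0.09), Flnc, filamin C (-0.43), and Mylk, the myosin light chain kinase (-0.32). Beside these values, the 3′ minus 5′ difference of the actin control probe sets was 0.12 ± 0.01 with Yap and 0.23 ± 0.02 in confluent control (SD, n = 2), and its part in the result was not tested. Of 8 muscle cell markers 1 lay above the median gene, Actc1 rose (0.35) and Tnnt3 fell (-1.42), and their summed log2 level was 8.49 to 8.62 with Yap and 8.57 to 8.60 in confluent control.

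The windows of Acta1 and Vcl are shown as members that rose and hold both a CArG box and GGAATG (RefSeq, GRCm38.p6, strand of the gene, capitals on these matches).
Acta1, minus strand, chr8:123894726-123895025: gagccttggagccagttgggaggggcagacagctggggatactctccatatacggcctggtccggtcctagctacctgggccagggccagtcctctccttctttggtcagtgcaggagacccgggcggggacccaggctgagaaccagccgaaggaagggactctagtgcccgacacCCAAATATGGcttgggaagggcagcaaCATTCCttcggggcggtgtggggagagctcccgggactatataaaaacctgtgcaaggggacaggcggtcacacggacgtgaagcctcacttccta
Vcl, plus strand, chr14:20929148-20929447: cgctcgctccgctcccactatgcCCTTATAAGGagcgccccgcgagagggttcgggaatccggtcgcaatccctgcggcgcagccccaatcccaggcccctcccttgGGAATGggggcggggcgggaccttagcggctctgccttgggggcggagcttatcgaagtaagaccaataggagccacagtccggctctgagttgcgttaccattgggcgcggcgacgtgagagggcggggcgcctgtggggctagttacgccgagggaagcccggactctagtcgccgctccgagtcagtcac
In Acta1 the CArG box begins 73 and the GGAATG match 46 bases before the start, and in Vcl they begin 227 and 143 bases before it. A CArG box on either strand was in 13 of 53 windows of the measured SRF genes, in 10 of 33 windows of those that rose, and in 1.63% of all windows. GGAATG was in 16 of the 53 windows (30.2%), in 8 of the 33 windows of those that rose (24.2%), and in 14.7% of all windows. Smtn, Myh10, Flnc and Mylk, which fell, also hold GGAATG.

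Of 34 integrin and focal adhesion genes 5 rose (14.7%) and 7 fell (20.6%), close to the 11.7% and 14.5% over all genes, with a median of -0.01. Itgb8, an integrin chain that activates latent TGF-beta, was at 7.66 and 7.63 with Yap and at 6.64 and 6.48 in confluent control (1.08). Itga6, a laminin receptor chain, rose by 0.62 and Ilk, the integrin-linked kinase, by 0.46. The adaptor Pxn, paxillin, fell by 0.42, Enah, an actin polymerase of adhesions, by 0.57, and Cav2, caveolin 2, by 0.65 on 1 of its 2 probe sets. The count of higher members was 3 when replicate 2 of the confluent control, replicate 1 of Yap or replicate 2 of Yap was left out.

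Genes of cholesterol synthesis were the list with the highest median, 0.99, among the 43. Of 21 measured enzymes and regulators 18 rose and 0 fell by limma's test, against 20 and 0 at an unadjusted p below 0.05. Idi1, which isomerizes the isoprenoid unit, was at 11.12 and 11.13 with Yap and at 9.21 and 9.34 in confluent control, which is 3.59-fold (1.84 ± 0.07, adjusted p = 2e-07). Fdps, which makes farnesyl pyrophosphate, was at 11.80 and 11.86 against 10.24 and 10.35. Cyp51, which demethylates lanosterol, was at 11.57 and 11.59 against 10.16 and 10.14, and its 3 probe sets lay between 1.14 and 1.43. In all 3 genes both Yap arrays lay above both control arrays. They were named by their small adjusted p, so this adds nothing to these values. Insig1, the feedback regulator that holds the sterol-sensing machinery in the endoplasmic reticulum, rose with the enzymes (1.42), as did Msmo1 (1.32), Sqle, squalene epoxidase (1.28), Lss, lanosterol synthase (1.12) and Fdft1, squalene synthase (0.91). Fdps had a further probe set at 0.11 and Fdft1 at -0.11.

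The windows of Hmgcs1 and Idi1 are shown as members that rose and hold the NF-Y motif CCAAT, and Hmgcs1 holds a sterol element, TCACNCCAC, as well (RefSeq, GRCm38.p6, plus strand, capitals on these matches, ATTGG being CCAAT on the other strand).
Hmgcs1, chr13:119690101-119690400: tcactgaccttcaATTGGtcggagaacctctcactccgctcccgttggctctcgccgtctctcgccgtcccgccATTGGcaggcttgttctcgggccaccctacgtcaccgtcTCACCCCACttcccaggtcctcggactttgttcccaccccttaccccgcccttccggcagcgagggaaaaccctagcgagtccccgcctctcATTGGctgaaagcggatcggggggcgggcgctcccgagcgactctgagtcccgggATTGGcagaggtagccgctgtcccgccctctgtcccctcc
Idi1, chr13:8885356-8885655: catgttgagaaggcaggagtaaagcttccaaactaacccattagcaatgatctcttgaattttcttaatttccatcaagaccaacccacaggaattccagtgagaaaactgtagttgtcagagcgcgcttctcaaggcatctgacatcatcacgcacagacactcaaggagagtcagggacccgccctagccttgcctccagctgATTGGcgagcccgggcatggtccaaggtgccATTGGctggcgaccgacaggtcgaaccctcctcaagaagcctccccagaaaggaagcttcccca
CCAAT was in 16 of 21 windows of the measured cholesterol genes, in 14 of 17 windows of those that rose, and in 37.4% of all windows. The sterol element was in 1 of the 21 windows, that of Hmgcs1, where it begins 137 bases before the start, and in 1.24% of all windows.

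Fatty acid synthesis moved in the same direction by less, with 11 of 18 genes higher, 0 lower (1 at an unadjusted p below 0.05 in limma) and a median of 0.27. Acsl3, which activates long-chain fatty acids, was at 9.14 and 9.08 against 8.05 and 8.12 (1.03), and the elongase Elovl6 at 9.50 and 9.56 against 8.63 and 8.78 (0.83, with another probe set at -0.02). The desaturases Fads1 (0.45), Fads2 (0.45) and Scd2 (0.27) and Acly, which makes cytosolic acetyl-CoA (0.36, probe sets -0.02 to 0.46), rose too.

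**Figure D3:**
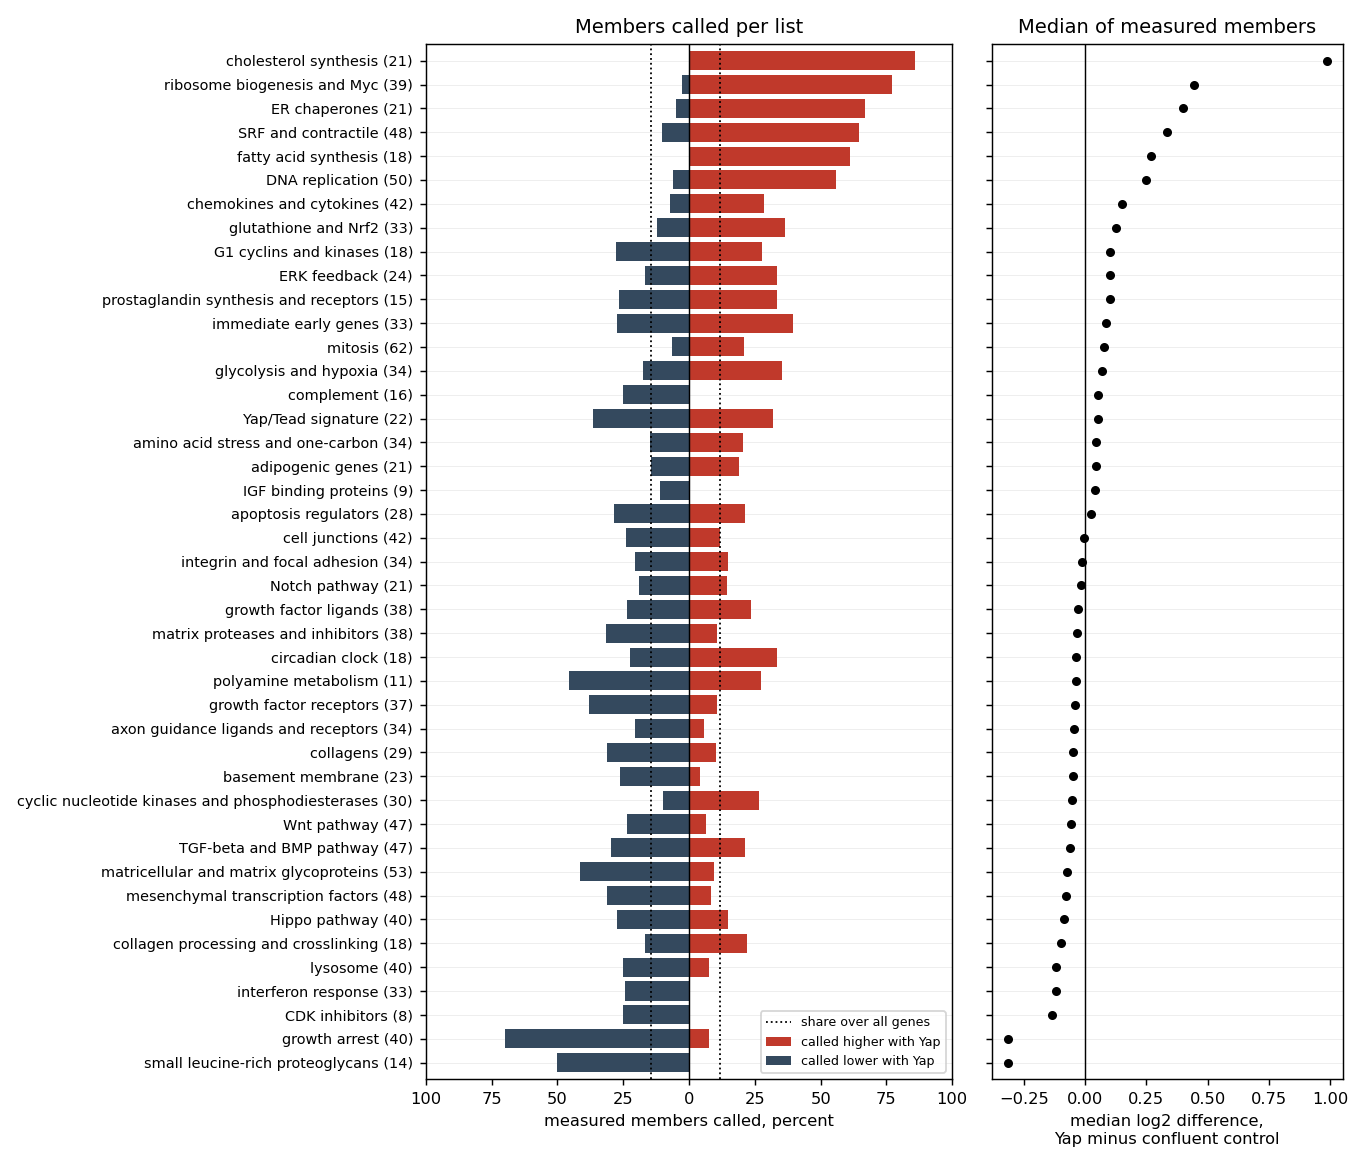
Share of the measured members of each of the 43 lists that rose or fell in Yap cells at high density relative to confluent control, with dotted lines at the share over all 18193 genes, 11.7% higher and 14.5% lower, and beside it the median log2 difference of the measured members. Cholesterol synthesis (18 of 21 higher) and ribosome biogenesis (30 of 39) stand on one side, and growth arrest (28 of 40 lower) on the other.

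Of 39 ribosome biogenesis genes 30 rose and 1 fell (median 0.44). Dkc1, the pseudouridine synthase dyskerin, was at 9.47 and 9.52 against 8.39 and 8.42 (1.09), and all 3 of its probe sets rose. Nop16, a nucleolar protein (0.76), Fbl, the methyltransferase fibrillarin (0.69), Nhp2 (0.66), Bop1 (0.65) and Gar1 (0.64) rose by less. The gene that fell was Mycn, itself a driver of this programme. Its brightest probe set was at 11.26 and 11.12 with Yap and at 13.26 and 13.27 in confluent control (-2.07), while its 2 other probe sets were not called. Of 11 polyamine genes 3 rose and 5 fell. The biosynthetic enzymes Odc1 (1.07) and Srm (1.03) and the Odc1 protector Azin1 (0.48) rose, and the catabolic Smox (-0.83), Sat1 (-0.45) and Sat2 (-0.33), the transporter Atp13a3 (-0.44) and the antizyme Oaz2 (-0.41) fell.

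Of 50 DNA replication genes 28 rose and 3 fell (median 0.25). Cdc6, which loads the helicase at origins, was at 7.45 and 7.56 with Yap and at 6.11 and 6.32 in confluent control (1.29 ± 0.08, adjusted p = 4.8e-06). Orc1, a part of the origin recognition complex, rose by 1.04 and on both probe sets. Cdt1 (0.74, probe sets -0.11 to 0.76), Mcm3 (0.72), Uhrf1 (0.72), Gmnn (0.71), Pcna (0.66) and Pole2 (0.57) followed. Those that fell were Rpa3 (-0.31), Pola2 (-0.27, probe sets -0.27 to 0.24) and Pole (-0.22), and 1 was lower without replicate 1 of the confluent control or without replicate 1 of Yap. Mitosis genes moved less, with 13 of 62 higher, 4 lower and a median of 0.08. Aurka, a spindle kinase (0.52), Cep55 (0.59), Plk4 (0.43), Cdc20 (0.39), Ccnf (0.51) and Ccna2 (0.33) rose. Against them, the proliferation marker Mki67 fell from 8.09 and 8.12 to 7.49 and 7.70 (-0.51), and Bub1b (-0.30) and Melk (-0.32) fell. Top2a, a topoisomerase, was at 8.94 and 8.98 against 9.99 and 10.06 (-1.06) on its brightest probe set, with its other probe sets up to 0.00. Among genes above the median level, 7 mitosis genes were lower.

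Among G1 regulators 5 of 18 rose and 5 fell. Ccne2, an S phase cyclin, was at 6.60 and 6.66 against 5.78 and 5.80 (0.84), and Rbl1 (0.39), Cdk6 (0.29) and E2f4 (0.26) rose with it, whereas the pocket proteins Rbl2 (-0.66) and Rb1 (-0.51), Ccnd3 (-0.34, probe sets -0.34 to 0.18) and E2f3 (-0.28) fell. The count of higher members was 3 without replicate 1 of Yap, and that of lower members 2 with the mean of each gene's probe sets. Of 8 inhibitors of cyclin-dependent kinases 2 fell and 0 rose (2 and 1 at an unadjusted p below 0.05 in limma), Cdkn1b (-0.51, on 1 of 2 probe sets, probe sets -0.51 to 0.10) and Cdkn2d (-0.30), and 1 of them was lower without replicate 1 of the confluent control or replicate 2 of Yap.

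The growth arrest list, of genes linked to resting fibroblasts, had 28 of 40 members lower and 3 higher (median -0.31). Not every member was higher in confluent than in low-density control. Gas2l3 was at a mean of 6.52 in confluent and 8.23 in low-density control, and Ccng1 at 10.74 and 11.94. Gas6, a ligand of the Axl family, was at 9.88 and 9.94 with Yap and at 11.36 and 11.38 in confluent control (-1.46), with a dimmer probe set at -0.02. Pdgfra, a receptor of platelet-derived growth factor, was at 11.26 and 11.29 against 12.95 and 12.73 (-1.57 ± 0.07, adjusted p = 8.6e-07). Txnip, an inhibitor of thioredoxin and of glucose uptake, was at 9.73 and 9.75 against 11.24 and 11.23. These genes were lower in both Yap arrays than in either control array. They too were named by their small adjusted p, so this adds nothing to these values. Gas2 (-1.13, probe sets -1.13 to 0.19), Zbtb20 (-1.22, probe sets -1.22 to 0.03), Ccng2 (-0.88) and Sesn3 (-0.81) fell with them, and Gas2l3 (0.54), Tsc22d3 (0.36) and Ccng1 (0.23) rose, and 6 members were higher with the mean of each gene's probe sets. Among regulators of apoptosis 8 of 28 fell and 6 rose. Bcl2l11 (-1.05, on all 5 probe sets), Bmf (-0.78) and Bbc3 (-0.60) fell, and Bcl2 (0.49), Bok (0.52), Bid (0.31) and Birc5 (0.30) rose. Bcl2l11, Bmf, Bbc3, Bok and Bid promote apoptosis, and Bcl2 and Birc5 restrain it. Lower members numbered 5 without replicate 2 of the confluent control, 4 without replicate 1 of Yap and 5 without replicate 2 of Yap.

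Of the 12 largest falls 4 were in extracellular matrix genes, Postn, Lum, Sned1 and Nid2. Postn, the matrix protein periostin, was at 8.80 and 8.85 with Yap and at 12.37 and 12.30 in confluent control, 11.4-fold lower (-3.51 ± 0.06, adjusted p = 5e-09). Lum, the proteoglycan lumican, was at 3.83 and 4.24 against 7.22 and 7.30. The Yap arrays lie far below the median gene of 6.87, at a level not shown to be above background, so no fold is given. Sned1, a matrix glycoprotein, was at 10.83 and 10.87 against 13.21 and 13.18 (-2.34). Nid2, a basement membrane linker, was at 6.94 and 7.03 against 8.98 and 8.83 (-1.92). Outside the matrix, the 12 largest falls included Rspo2, which potentiates Wnt signalling, at 7.73 and 7.64 against 10.12 and 10.17 (-2.46, and -0.11 on the other probe set), Osr1, a zinc finger factor of mesenchyme, at 10.38 and 10.30 against 12.79 and 12.64 (-2.37), and Apod, a lipocalin (-2.19, and 0.15 on the other probe set). Pappa, a protease that cleaves Igfbp4, fell by 1.86 (probe sets -2.47 to -0.16). Aoc3, an amine oxidase, was at 5.62 and 5.83 against 7.55 and 7.60 (-1.85). Phex, a peptidase, was at 4.57 and 4.90 against 7.28 and 7.33 (-2.57, and -0.91 on the other probe set). Lrrc17 was at 5.03 and 5.21 against 7.38 and 7.51 (-2.32, and -0.17 on the other probe set). The Yap arrays of Apod (6.26 and 6.31), Aoc3, Phex and Lrrc17 also lay below the median gene. Those of Pappa, at 6.85 and 6.86, lay just below it. The size of these falls is therefore uncertain. Absence of overlap between the groups was a condition for naming the largest falls, so it adds nothing to these values.

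By class of matrix gene, 7 of 14 small leucine-rich proteoglycans fell and 0 rose (7 and 0 at an unadjusted p below 0.05 in limma, 4 fell among genes above the median level, median -0.32), with decorin, Dcn, at 11.85 and 11.98 against 13.36 and 13.34 (-1.44) and Fmod (-1.02), Aspn (-0.48), Bgn (-0.39) and Prelp (-0.36) behind it. Of 53 matricellular proteins and matrix glycoproteins 22 fell (41.5%) and 5 rose (9.4%), the latter close to the 11.7% over all genes. The falls included Islr (-1.62), Abi3bp (-1.56), Srpx2 (-1.07), Ltbp1 (-0.93) and Ltbp4 (-0.89). Ltbp1 and Ltbp4 bind latent TGF-beta, and another of the family, Ltbp2, rose by 0.86. The other rises included those of Ccn4, a relative of Ccn2 (0.84), Tnc, tenascin C (0.76), and Spon2 (0.51). Among 29 collagens 9 fell (31.0%) and 3 rose (10.3%), the latter close to the 11.7% over all genes. Col6a3 (-0.96), Col6a2 (-0.80), Col6a1 (-0.64) and Col3a1 (-0.62) fell, and Col4a1 rose by 0.48 on 1 of 2 probe sets, Col8a1 by 0.25 and Col14a1 by 0.70. In each of 3 fits, without replicate 1 or 2 of the confluent control or replicate 1 of Yap, 1 collagen rose. In the basement membrane list 6 of 23 fell, among them Agrn, agrin (-0.96), Col4a6 (-0.74), Col4a5 (-0.67) and Lamb1 (-0.54), and Col4a1 rose.

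Beside these falls, 7 of 12 fibroblast markers fell and Thy1 rose (0.19), and 11 of the 12 lay above the median gene of 6.87 over the 12 arrays. Their summed log2 level was 16.67 to 16.70 with Yap and 17.00 to 17.03 in confluent control. The markers that fell were Col1a1 (-0.42), Col3a1, Fn1 (-0.45), Pdgfra, Pdgfrb (-0.59), Lum and Dcn, and Vim was at 14.03 and 14.06 against 14.08 and 14.10 (adjusted p = 0.52). All arrays were of the NIH3T3 line, and bulk RNA does not show whether these falls were in all cells or in some of them.

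Of 38 matrix proteases and inhibitors 12 fell and 4 rose. Adamts1, which cleaves proteoglycans, was at 9.40 and 9.48 with Yap and at 11.17 and 11.08 in confluent control, 3.23-fold lower, and Adamts5 (-0.86), Adamts7 (-0.73), Adamts4 (-0.46) and Mmp2 (-0.40) fell as well. Timp1, an inhibitor of metalloproteases, went the other way, at 11.13 and 11.06 against 9.46 and 9.44, which is 3.13-fold. Reck, a membrane-bound inhibitor, fell by 0.63. Plaur (0.45) and Plat (0.26) of the plasminogen system rose, and Mmp13 rose by 0.22 at a level of 2.45 and 2.39, among the dimmest genes. Without replicate 1 of Yap, 2 members rose. Among enzymes that process and crosslink collagen 4 of 18 rose (22.2%) and 3 fell (16.7%), the latter close to the 14.5% over all genes. Loxl4 (0.63) and the hydroxylases P4ha3 (0.62), Plod2 (0.38) and P4ha1 (0.26) rose, and Bmp1, the procollagen protease (-0.80), Plod1 (-0.22) and Lox (-0.18) fell, of which 1 was lower without replicate 2 of the confluent control or replicate 2 of Yap.

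Of 38 growth factor ligands 9 rose and 9 fell. Ereg, an EGF receptor ligand, was at 7.17 and 7.19 with Yap and at 6.06 and 6.22 in confluent control (1.04). Bdnf (0.85), Edn1, endothelin (0.71), Csf1, the macrophage growth factor (0.64), and Pdgfc (0.60) rose, and Igf2 (-1.06, and -0.03 on its other probe set), Ptn, pleiotrophin (-0.96), Nrg1 (-0.82) and Fgf7 (-0.61) fell. Of 37 receptors 14 fell (37.8%) and 4 rose (10.8%), the latter close to the 11.7% over all genes. Beside Pdgfra, those that fell included Ephb4 (-0.72), Insr (-0.66, probe sets -0.66 to 0.04), Pdgfrb (-0.59), Igf2r (-0.54), Ddr2, a collagen receptor (-0.51), Ror1 (-0.49) and Pdgfrl (-0.39). Epha2 (0.82), Ddr1 (0.51, probe sets -0.07 to 0.66), Flt1 (0.31) and Met (0.25) rose, and 2 receptors rose without replicate 1 of the confluent control or replicate 2 of Yap. Of 9 IGF binding proteins 1 was called, a fall (11.1%, against 14.5% over all genes). This was Igfbp4, at 11.24 and 11.17 against 12.52 and 12.47 (-1.29), with all 6 probe sets lower.

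Feedback genes of the ERK pathway, which are switched on by growth factor signalling, were higher in 8 of 24 cases and lower in 4. The share that fell, 16.7%, was close to the 14.5% over all genes. The ERK phosphatase Dusp6 was at 9.53 and 9.57 against 8.01 and 7.98 (1.55 ± 0.05, adjusted p = 1e-07). Dusp5 rose by 1.16, Dusp1 by 0.92, Dusp14 by 0.36, and the ETS factors Etv5 and Etv4 by 1.32 and 0.59. The inhibitors Spred1 (-0.39, probe sets -0.39 to 0.05), Spred2 (-0.31, probe sets -0.36 to 0.05) and Spred3 (-0.71) and the phosphatase Dusp7 (-0.25) fell, and 2 of the 4 were lower without replicate 1 of the confluent control or replicate 1 of Yap. Of 33 immediate early genes 13 rose and 9 fell. The Id proteins, dominant negative partners of helix-loop-helix factors, led them, with Id1 at 10.38 and 10.36 against 8.04 and 8.03, Id2 at 10.87 and 10.73 against 8.75 and 8.75, and Id3 at 11.53 and 11.54 against 10.46 and 10.44. All 3 were higher in both Yap arrays, which adds nothing to these values. Absence of overlap was a condition for naming Id1 and Id2 among the largest rises, and Id3 was named by its small adjusted p. Fosl1 (0.94) and Egr1 (0.72) rose, and Jun (-0.60), Nr4a1 (-0.83), Btg2 (-0.67) and Zfp36 (-0.52) fell.

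Of 42 chemokines and cytokines 12 rose and 3 fell (median 0.15). Ccl2, which attracts monocytes, was at 8.98 and 9.02 with Yap and at 6.54 and 6.17 in confluent control (2.65 ± 0.11, adjusted p = 4e-07). Ccl7, a related chemokine, was at 8.67 and 8.55 against 6.50 and 6.58 (2.07). Ccl9 (1.11), the neutrophil chemokine Cxcl5 (0.98) and Il15 (0.81) rose, and the receptor Il1r1 (-0.86, probe sets -0.86 to 0.02), Il18 (-0.32) and Ccl25 (-0.26) fell, Ccl25 with its other probe set at 0.30. The count of higher members was 6 without replicate 1 of the confluent control, 7 without replicate 1 of Yap, and 7 among genes above the median level. Ptgs2, the inducible cyclooxygenase, was at 9.07 and 9.10 against 7.32 and 7.46 (1.70) and led the prostaglandin list, where 5 of 15 rose and 4 fell. Pla2g4a, which releases arachidonate (0.39), Ptges2 (0.26) and the receptors Ptger1 (0.62) and Ptger4 (0.34) rose, and the synthases Ptges (-0.61) and Ptgds (-0.29, probe sets -0.29 to 0.13) and the receptors Ptgfr (-0.53) and Ptgir (-0.52) fell. In that list 3 rose without replicate 1 of the confluent control or replicate 2 of Yap, and 2 fell without replicate 1 of the confluent control or replicate 1 of Yap.

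Complement and interferon genes had no rises by this test. Of 16 genes on the complement list 4 fell, C1s1 (-1.15), C1qtnf3 (-0.61), Clu, clusterin (-0.57, on all 4 probe sets), and C1ra (-0.35). C1qtnf3 is related to C1q and is not itself a complement component. Of 33 interferon response genes 8 fell, among them Ifit3 (-0.61), Gbp2 (-0.56), Xaf1 (-0.53) and B2m, the light chain of class I antigen complexes (-0.28). At an unadjusted p below 0.05, 0 complement genes were higher and 5 lower, and 2 interferon genes were higher and 12 lower. Beside these lists, of 8 macrophage and leukocyte markers 3 lay above the median gene. Cd14 (0.42) and Cd68 (0.28) rose and Lyz2 (-0.63) and Aif1 (-0.37) fell, with Ptprc, the defining marker, at 3.41 and 3.45 against 3.21 and 3.26. Their summed level was 9.63 with Yap and 9.81 to 9.90 in confluent control, and its part in the result was not tested.

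Among signalling pathways, the TGF-beta and BMP list had 10 of 47 members higher and 14 lower. Those that rose included the pathway's own targets and inhibitors, Id1 to Id3, Skil, at 9.25 and 9.26 against 7.75 and 7.61 (1.57), Smad6 (1.17) and Smad7 (0.90). The Wnt list had 11 of 47 lower and 3 higher. Beside Rspo2, the receptors Fzd4 (-0.68, on all 3 probe sets), Fzd1 (-0.59) and Lrp6 (-0.35), the ligand Wnt9a (-0.58) and the nuclear factors Tcf7l1 (-0.62) and Tcf7l2 (-0.59) fell, and Fzd7 (0.55), Wnt10a (0.33) and Fzd3 (0.21) rose. Lower Wnt members numbered 6 without replicate 1 of the confluent control and 7 without replicate 2 of Yap, and 1 rose without either replicate of Yap in turn. Of 21 Notch genes 3 rose (14.3%) and 4 fell (19.0%), close to the 11.7% and 14.5% over all genes. Rbpj, the pathway's DNA-binding factor (-0.72), and the ligands Jag1 (-0.63) and Dlk1 (-0.55) fell, and the target Hes1 (0.71), Notch4 (0.69) and Lfng (0.66) rose.

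Of 48 transcription factors of mesenchyme 15 fell (31.2%) and 4 rose (8.3%, against 11.7% over all genes). Ebf1 was at 8.23 and 8.28 with Yap and at 9.81 and 9.74 in confluent control (-1.52, its 5 probe sets between -1.65 and 0.02), and Eya1 (-1.31), Osr2 (-1.24), Sox4 (-0.93), Foxc2 (-0.80) and Zeb1 (-0.61, probe sets -0.61 to 0.05) fell with Osr1. Hmga2, a chromatin protein of growing mesenchyme, was at 9.47 and 9.51 against 8.001 and 8.05 (1.46), and Snai1 (0.63), Foxf2 (0.55) and Runx1 (0.51) rose. Of 30 genes of cyclic nucleotide signalling 8 rose (26.7%) and 3 fell (10%, against 14.5% over all genes). The phosphodiesterase Pde7a was at 9.35 and 9.39 against 8.06 and 8.05 (1.31, on all 7 probe sets), and Pde8a (0.79, probe sets -0.04 to 0.79), Pde8b (0.74) and Prkar2a (0.74) rose. The anchoring protein Akap12 (-0.56), Prkacb (-0.32, probe sets -0.32 to 0.01) and Adcy6 (-0.29) fell.

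Of 42 cell junction genes 10 fell (23.8%) and 5 rose (11.9%), the latter close to the 11.7% over all genes. The gap junction protein Gja1 was at 9.49 and 9.39 with Yap and at 8.25 and 8.41 in confluent control (1.11, on all 6 probe sets), and Pkp2 (0.69), Alcam (0.48) and Pcdh7 (0.46, probe sets -0.23 to 0.46) rose. Jup, plakoglobin (-0.82), Pcdh18 (-0.43), Pcdh19 (-0.36) and Tjp1, ZO-1 (-0.34), fell. Lower members numbered 5 without replicate 2 of the confluent control and 6 without either Yap replicate in turn. Of 34 guidance genes 7 fell (20.6%) and 2 rose (5.9%), the former close to the 14.5% over all genes. Sema3b (-0.95), Sema3c (-0.88), its receptor chain Nrp2 (-0.40, probe sets -0.40 to 0.09), Plxnb2 (-0.40) and Efnb1 (-0.38) fell, and Slit2 (0.38) and Unc5b (0.31) rose, with 1 rise without replicate 2 of the confluent control or replicate 2 of Yap.

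Of 21 chaperones and stress genes of the endoplasmic reticulum 14 rose and 1 fell (median 0.40). Hspa5, the major chaperone BiP, was at 13.22 and 13.21 against 12.43 and 12.44 (0.78 ± 0.05, adjusted p = 4.8e-06). Sdf2l1 (0.89), Manf (0.81), Dnajb9 (0.77), Creld2 (0.70), Hyou1 (0.67), Pdia6 (0.53) and the transcription factor Xbp1 (0.53) rose. The sensor Ern1 fell by 0.37 on 1 of 5 probe sets, the others reaching 0.21, and it was not called with the mean of its probe sets. The glycolysis and hypoxia list had 12 of 34 higher (35.3%) and 6 lower (17.6%), the latter close to the 14.5% over all genes. The glycolytic enzymes Hk2 (0.64), Pkm (0.47), Pfkp (0.46), Pgk1 (0.41) and Pgam1 (0.39) rose, while Pfkm (-0.71), Pfkfb3 (-0.72), the hypoxia-induced peptide Adm (-0.95) and Ddit4 (-0.35) fell. The glutathione and Nrf2 list had 12 of 33 higher (36.4%) and 4 lower (12.1%), the latter close to the 14.5% over all genes. Both subunits of the rate-limiting enzyme of glutathione synthesis rose, Gclc (0.90) and Gclm (0.54), as did Srxn1 (0.64), Pgd (0.53) and Gss (0.51), and Aldh3a1 (-1.17) and Gsta4 (-0.64) fell.

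Among 34 amino acid stress and one-carbon genes 7 rose (20.6%) and 5 fell (14.7%), the latter close to the 14.5% over all genes. The mitochondrial folate enzyme Mthfd1l (0.72), Psph (0.52) and Asns (0.32) rose, and Slc6a9 (-0.42), Nupr1 (-0.41) and Ddit3 (-0.31, with another probe set at 0.52) fell. The count of higher members was 3 without replicate 1 of the confluent control or replicate 2 of Yap, and 4 without replicate 2 of the confluent control. Among 40 lysosomal genes 10 fell and 3 rose. The falls included Fuca1 (-0.32, probe sets -0.32 to 0.14), Smpd1 (-0.30), Gaa (-0.28) and Lamp2 (-0.27). That count was 5 and 6 without replicates 1 and 2 of the confluent control, 4 and 5 without replicates 1 and 2 of Yap, 16 with a variance trend and robust prior, and 6 both with the mean of probe sets and with the 4 arrays fitted alone. Among 21 adipogenic genes 4 rose (19.0%) and 3 fell (14.3%, close to the 14.5% over all genes). Cebpd was at 1.05 on 1 of 2 probe sets, Fabp5 at 0.75 and Lpl, lipoprotein lipase, at -1.17. Among 18 clock genes 6 rose and 4 fell. Bhlhe40 (1.02), Nfil3 (0.55), Cry1 (0.47) and Per2 (0.32) rose, and Rora (-1.33), Dbp (-0.83), Per3 (-0.65) and Nr1d1 (-0.59) fell, with 3 rises without replicate 2 of Yap.

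At the same labelled density, few genes passed the adjusted test between Yap cells and Tead2-VP16 cells: 170 of 18193 (0.934%) were higher and 197 (1.08%) lower with Yap, 6 and 2 of them by at least 2-fold. This is the test of the difference between their effects. The effects of Yap and of Tead2-VP16 against confluent control share the control arrays, and Tead2-VP16 alone gave 2408 genes higher (13.2%) and 2485 lower (13.7%). Side by side, the median of the cholesterol list was 0.99 with Yap and 0.65 with Tead2-VP16, that of SRF and contractile genes 0.33 and 0.47, ribosome biogenesis 0.44 and 0.47, ER chaperones 0.40 and 0.32, and growth arrest -0.31 and -0.30. By the test between the constructs, 7 cholesterol genes were higher with Yap and 0 lower, among them Cyp51 (0.41), Sqle (0.36), Lss (0.35) and Fdps (0.32). DNA replication genes were higher in 11 cases and lower in 0, among them Cdc6 (0.56), Uhrf1 (0.45) and Mcm3 (0.34), and mitosis genes in 7 and 0, with Plk4 at 0.31. At an unadjusted p below 0.05 in limma, 13 cholesterol, 32 DNA replication and 24 mitosis genes were higher, and 0 members of these 3 lists were lower. SRF genes were higher in 1 case, Fhl1 (1.18), and lower in 6, with Acta2 at -0.31. At an unadjusted p below 0.05 in limma, 4 of the 48 were higher and 23 lower. In the Yap/Tead signature 6 were higher and 2 lower with Yap: Ccn2 (0.90), Crim1 (0.81), Ccdc80 (0.52), Ccn1 (0.46), Amotl2 (0.36) and Nuak2 (0.30) against F3 (-0.34) and Asap1 (-0.32).

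The genes with the largest difference between the constructs were picked after their values were seen. Slurp1, a secreted Ly6 protein, was at 11.51 and 11.57 with Yap, 10.13 and 10.10 with Tead2-VP16 and 9.70 and 9.81 in confluent control (Yap minus Tead2-VP16 1.43, adjusted p = 1.6e-05), 3.45-fold over confluent control. C1qtnf3 (1.29), Golt1b (1.26), Ogn, a matrix proteoglycan (1.26), and Cyp26b1, which degrades retinoic acid (0.98), were also higher with Yap. Ogn was as high in confluent control, at 10.66 and 10.79, as with Yap, at 10.68 and 10.72, and lower with Tead2-VP16, at 9.46 and 9.43. Adamts1 was 1.89-fold higher with Yap than with Tead2-VP16. Lower with Yap were Lcp1, an actin bundler of leukocytes, at 6.22 and 5.82 against 7.15 and 7.46 (-1.29), Mycn (-1.11), Clu (-0.90), Tgm2, a crosslinking transglutaminase (-0.76), and Mgp, matrix Gla protein (-0.75). Without replicate 1 or 2 of Yap or of Tead2-VP16 in turn, 57, 43, 53 and 107 genes were higher and 38, 38, 33 and 81 lower.

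**Figure D4:**
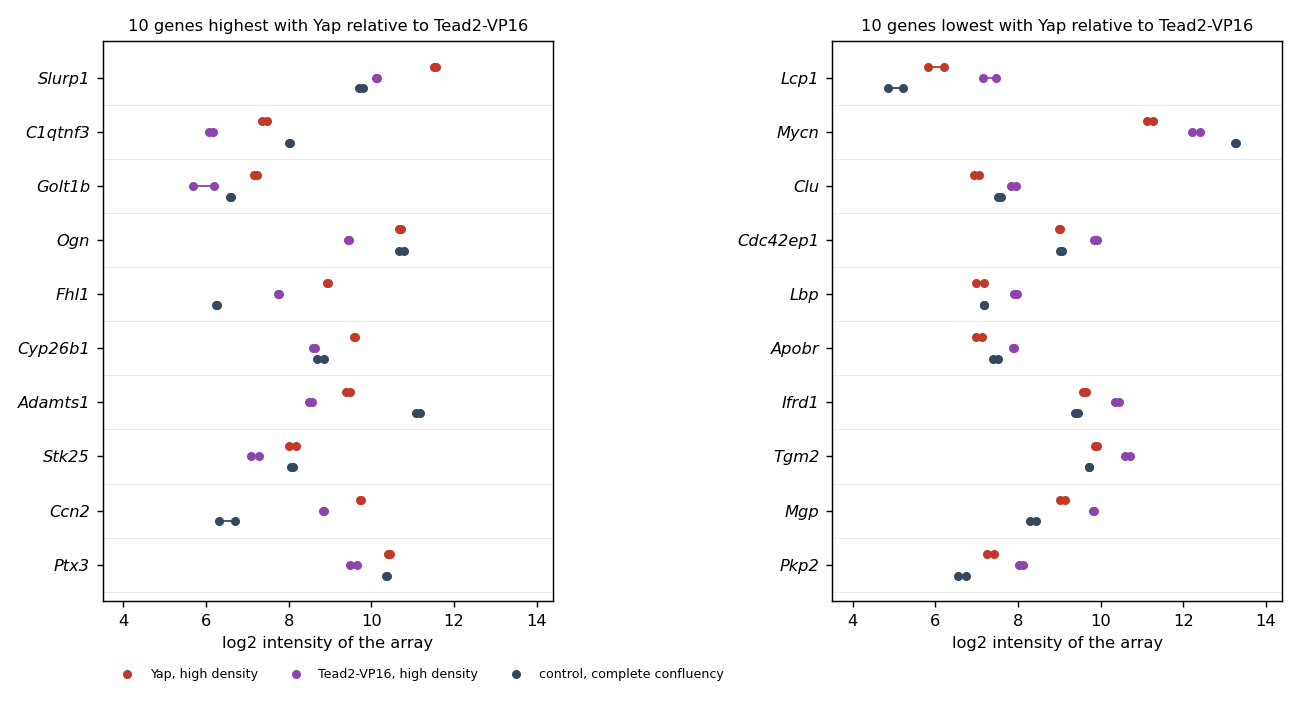
Log2 intensity of each array for the 10 genes most higher (left) and the 10 most lower (right) with Yap than with Tead2-VP16, both at high density, beside control at complete confluency. Slurp1 is highest in the 2 Yap arrays (11.51 and 11.57), and Ogn is as high in confluent control (10.66 and 10.79) as with Yap (10.68 and 10.72).

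Against control cells at low density, 4047 genes (22.2%) were higher and 3669 (20.2%) lower in the Yap cells, and the cell cycle set them apart most. All 50 DNA replication genes and 61 of 62 mitosis genes were lower in the Yap cells than at low density, as were 37 of 39 ribosome biogenesis genes, with medians of -1.71, -2.47 and -0.95. Cdc6 was at a mean of 10.05 at low density and Mki67 at 10.38. The growth arrest list had a median of 0.79 over low density, with 28 genes higher and 6 lower, and lysosomal genes 0.58, with 31 higher and 1 lower. The median of cholesterol genes was -0.13, with 5 higher and 8 lower, and that of SRF genes 0.07, with 20 higher and 10 lower. ER chaperones were higher than at low density in 15 cases and lower in 0 (median 0.32; also 0 lower at an unadjusted p below 0.05). Set against confluent control, the medians at low density and with Yap were 1.08 and 0.99 for cholesterol synthesis, 0.24 and 0.33 for SRF genes, 1.34 and 0.44 for ribosome biogenesis, 2.05 and 0.25 for DNA replication, 2.49 and 0.08 for mitosis, and -1.27 and -0.31 for growth arrest, again over shared control arrays. Against the median of the ribosome biogenesis list, Mycn was 3.81 above its low-density level. Of genes outside these lists, Itgb8 was 2.60, Egr1 2.62 and Ccl9 3.06 above it. These 4 genes were picked after their values were seen.

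**Figure D5:**
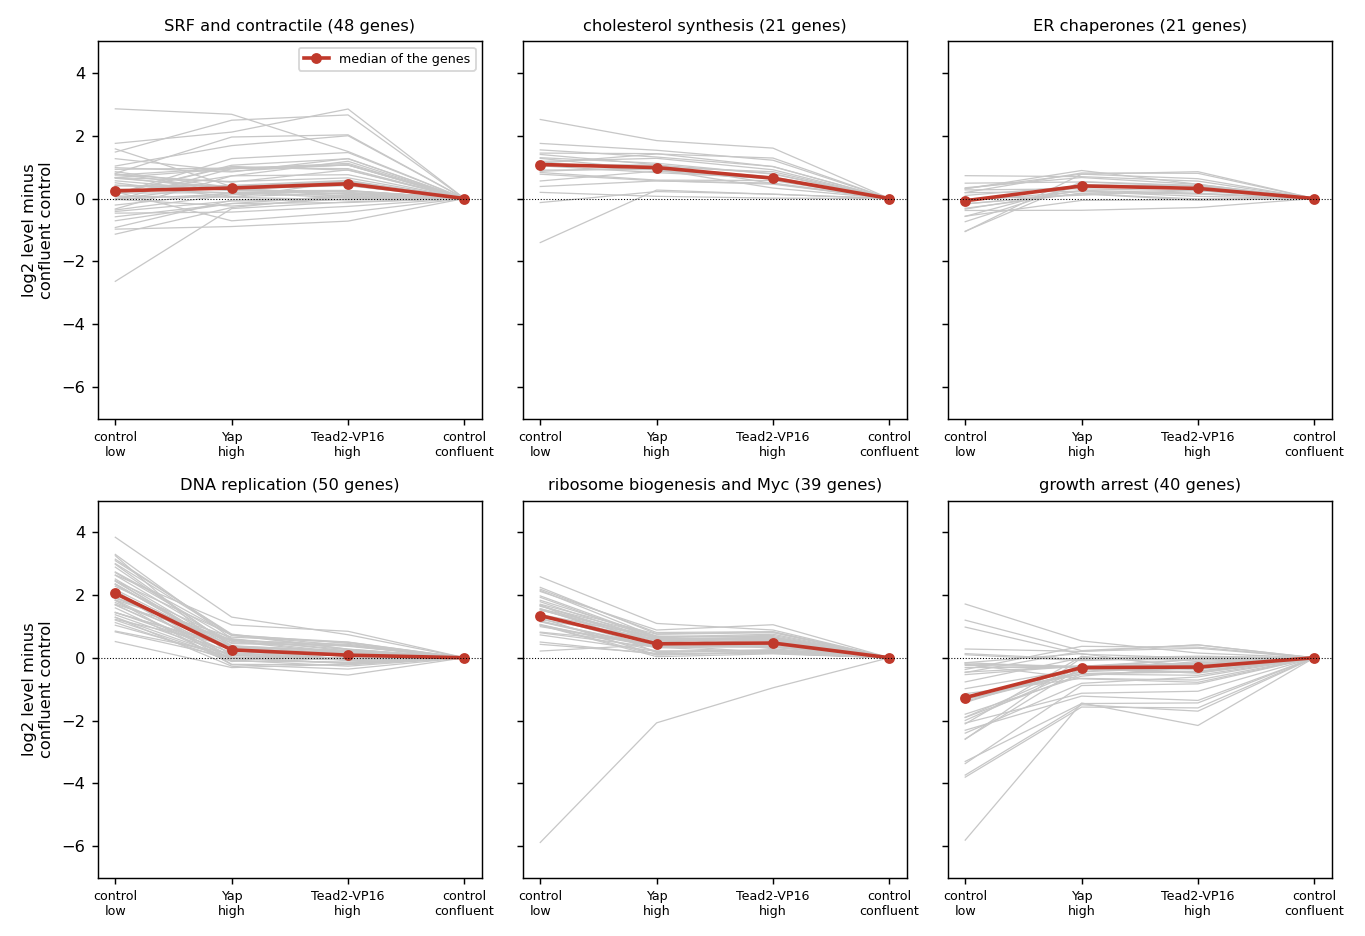
Log2 level of each gene (grey lines) in 6 lists relative to its mean in confluent control, in low-density control, in Yap, in Tead2-VP16 and in confluent control, with the median in red. Every line meets 0 at confluent control by construction, and at Yap the medians stand at 0.99 for cholesterol synthesis and 0.25 for DNA replication.

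Markers of other cell types and array controls are given for reference. Of 8 epithelial markers 2 lay above the median gene, Krt14 rose (0.46), Epcam fell (-0.54), and the summed level was 10.96 to 10.98 with Yap and 10.70 to 10.74 in confluent control. None of 8 endothelial and none of 6 measured adipocyte markers lay above the median gene, and Pecam1 was called higher (0.39) at 4.45 and 4.65 against 4.20 and 4.13. The 3′ minus 5′ difference of Gapdh was -0.26 with Yap and -0.28 in confluent control, and that of the transferrin receptor 1.31 and 1.30. The 12 poly-A spike-in probe sets were at 8.59 ± 0.09 and 8.71 ± 0.14, and the 9 hybridization controls at 10.9 ± 0.09 and 11.02 ± 0.18 (log2, SD, n = 2 arrays).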

How the data were processed

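Total RNA of 12 samples of virus-infected NIH3T3 cells in 6 groups was hybridized to Affymetrix arrays, and the 4 arrays of Yap at high density and control at complete confluency carry the comparison. The deposited values are probe set intensities on a linear scale from 3.77 to 25980, made with RMA per the submitters' processing notes (version not given in the sources used here), with array medians between 51.9 and 53.7. Precision is limited by how many arrays there are. Log2 of the deposited intensity was taken with no further normalization. Of 45101 probe sets, 34945 had 1 gene symbol, 932 several, 9160 none and 64 were controls, and 34741 Entrez identifiers matched RefSeq. Each of 18193 genes was represented by its probe set with the highest mean over 12 arrays (9010 genes had more than 1). Of 255 called genes named by the rule below that have more than 1 probe set, 43 had a probe set of the opposite sign.

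All groups were fitted together with limma 3.58.1 in R 4.3.3 (6 residual and 3.45 prior degrees of freedom), with Benjamini-Hochberg adjustment over all genes and a threshold of 0.05. The fit was tested on simulated data. Named were the 12 largest rises and falls with at least a 2-fold change, up to 8 called members of each list by adjusted p and up to 4 against the majority, all signature and Hippo members, and markers. The members, lists and naming rule were chosen with earlier results of these data known. Of 1417 list entries, 80 matched no measured symbol and were not analysed here. Replicate numbers were checked as a pairing: deviations from the group means correlated at 0.087 between Yap and confluent control, -0.048 with Tead2-VP16 and 0.033 with low density, so the numbers were taken as names only. Alternatives were a filter on level, every probe set or their mean, a replicate block, a variance trend with robust prior, repeated quantile normalization, median centring, the arrays of the comparison alone, a pseudocount of 16, a 2-fold change with no test, and leaving out each array. Promoter windows come from RefSeq (GRCm38.p6).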

Additional observations from a re-analysis of the deposited data

Results flagged for a closer look

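In 11 genes Yap and Tead2-VP16, at the same labelled density, moved in opposite directions from the same confluent control, with both effects and the difference between them past the adjusted threshold in limma. The difference, Yap minus Tead2-VP16 in log2, was -0.90 for Clu, -0.84 for Apobr, -0.62 for Sipa1l2, -0.56 for Socs3, -0.48 for Tbx18 and -0.38 for P2rx7. It was 0.54 for Slc12a1, 0.59 for Hoxd3os1, 0.61 for Neat1, 0.70 for Col8a1 and 1.26 for Golt1b. Clu, a secreted chaperone, was at 6.93 and 7.06 with Yap, 7.60 and 7.52 in confluent control and 7.96 and 7.83 with Tead2-VP16. Of the 11, 3 remained without replicate 1 of the confluent control and 1 without replicate 2, and Clu was the gene that met the 3 conditions under every alternative in which they were tested.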

How the results depend on the processing

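Of 373 named genes that were called, 306 were called under every alternative that tested them. With probe sets averaged per gene, 26 lost the call and 3 changed sign: Map4k4 at 0.18, Ccl25 at 0.023 and Ddit3 at 0.11. Leaving out 1 of the 4 arrays lost between 30 and 40 calls. The share of higher calls was 44.6% and lay between 41.4% and 49.1% under the alternatives. No pairing was shown, and with the replicate number as a block the counts were 2072 higher and 2588 lower against confluent control, 165 and 174 against Tead2-VP16, and 4028 and 3664 against low density.

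Testing every probe set gave 3586 higher and 4073 lower against confluent control, 458 and 301 against Tead2-VP16, and 7108 and 6558 against low density. A 2-fold change with no test gave 93 and 107, 8 and 2, and 621 and 583. Leaving out an array gave 1395 to 1652 higher and 1843 to 1982 lower against confluent control, 43 to 107 and 33 to 81 against Tead2-VP16, and 3429 to 3719 and 3151 to 3493 against low density. Counts against Tead2-VP16 also moved with the genes above the median level (402 higher, 584 lower), a variance trend and robust prior (439 and 619), a pseudocount of 16 (287 and 424) and only the arrays of the comparison (39 and 39). The cause was not tested. List counts moved by over 1.5 times with the mean of probe sets for 9 counts of 79, with genes above the median level for 4, with a variance trend and robust prior for 3, with the arrays of the comparison alone for 2, and with 1 array left out for 9 to 13. Dim probe sets limit what can be read at low levels.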
